A study of Mus musculus with 288 samples.

Results

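Enzymes that phosphorylate, ubiquitylate or deubiquitylate the clock proteins PER and CRY were followed in 6 tissues of mice after intermittent hypoxia (IH), as 7 genes out of the 35904 in the tables. The genes were taken by role and name: 4 kinases (Csnk1d, Csnk1e, Csnk1a1 and Gsk3b), 2 F-box proteins (Btrc and Fbxl21) and 1 deubiquitinase (Usp2). Wild-type C57BL/6J male mice, 8 weeks old, breathed either room air throughout (normoxia) or air cycling between 21% and 8% O2 in the light phase for 7 days (IH), and both groups were then kept in constant darkness and room air for 2 days. Lung, liver, kidney, muscle, heart and cerebellum were taken on the second of those days every 3 hours, at 8 time points from 1:30 to 22:30 (hours and minutes, as labelled), with 3 replicates each. This gave 24 libraries per tissue and treatment and 12 groups in all. IH is a model of the oxygen swings of obstructive sleep apnea, and no tissue was taken during the exposure itself.

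The circadian clock of mammals is a loop in which CLOCK and ARNTL (BMAL1) drive transcription of the Per and Cry genes and the PER and CRY proteins return to the nucleus to block their own transcription. How fast PER and CRY are removed sets the pace of the loop. Casein kinase 1 phosphorylates PER, which lets the F-box protein of the Btrc gene, beta-TrCP, bring PER to a ubiquitin ligase, while the F-box protein FBXL21 binds CRY, and deubiquitinases such as USP2 take ubiquitin off again. Control of these enzymes can act on the protein, which RNA does not measure.

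The tissues carried the transcripts of their defining genes, and 2 libraries stood farthest apart. The liver IH library of replicate 2 at 13:30 held 944.3 TPM summed over 4 liver genes (Alb, Apoa1, Cyp2e1 and Serpina1a), against at least 40529 TPM in each liver library of normoxia, and 3694 TPM over 4 heart genes (Myh6, Nppa, Myl7 and Tnni3), against at most 30.7 TPM there. The cerebellum IH library of replicate 3 at 1:30 held 206.1 TPM over 4 cerebellar genes (Pcp2, Cbln1, Gabra6 and Cbln3), against at least 1047 TPM in normoxia, and 4154 TPM over the heart genes, against at most 1842 TPM in normoxia. Others stood apart by less: a lung IH library held 33250 TPM over 4 lung genes against at least 133040 TPM in normoxia, the cerebellum normoxia library of replicate 3 at 19:30 held 4287 TPM over 4 muscle genes against a median of 82.3 TPM, and the heart normoxia library of replicate 2 at 19:30 held 1997 TPM over the lung genes against a median of 0.944 TPM. Marker sums also differed between treatments beyond these libraries. The liver genes in the liver had a median of 47745 TPM in normoxia and 31911 TPM after IH, which is below the lowest normoxia library. The heart genes in the cerebellum had a median of 442.8 TPM in normoxia and 261.4 TPM after IH. The part of these differences in the results was not tested. Results of liver and cerebellum are given with and without the first 2 libraries where that changes a call. The deposited tables hold TPM (a level corrected for transcript length, as a share of all transcripts in the library) and no counts, so the depth is unknown. Treatments also differed in the number of genes detected, which averaged 25124 in the heart in normoxia and 21447 after IH, and 22694 in the lung in normoxia and 25455 after IH.

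The promoter of Usp2 is shown because Usp2 had the widest daily swing of the 7 genes. RefSeq promoters (250 bases before to 50 bases after a start, build GRCm38.p6) were found for 4 of the 7 genes: Usp2, Fbxl21, Csnk1e and Gsk3b. The Usp2 window below lies at chr9:44084670-44084969 on the plus strand, inside the Usp2 gene as annotated (chr9:44067021-44095627), so the gene also has a start upstream of it, and the gene-level TPM does not tell the transcripts apart. Capitals mark the 50 transcribed bases.
Usp2: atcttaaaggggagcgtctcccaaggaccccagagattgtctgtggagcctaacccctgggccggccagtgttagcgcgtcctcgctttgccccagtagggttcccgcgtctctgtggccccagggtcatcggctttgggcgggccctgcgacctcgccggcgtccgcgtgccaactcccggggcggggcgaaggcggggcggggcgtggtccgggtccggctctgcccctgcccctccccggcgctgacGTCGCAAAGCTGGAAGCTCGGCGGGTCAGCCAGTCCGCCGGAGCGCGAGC
Both strands of the promoters were searched for the E-box CACGTG, bound by CLOCK and ARNTL, for the D-box forms TTATGTAA and TTACGTAA, bound by DBP and its relatives, and for TAGGTCA, the core of the element bound by REV-ERB and ROR. The Usp2 window, like those of the other 3 genes, had 0 matches. Of 32851 promoters of this length, 7.15% held CACGTG, 0.938% TTATGTAA, 0.119% TTACGTAA and 2.61% TAGGTCA. That these letters are missing from 300 bases says nothing of elements elsewhere.

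The kinases were most abundant in the lung, apart from Gsk3b. Csnk1a1 (CK1 alpha, chr18:61555274-61590061 in GRCm38/mm10, the build of all positions given here) was the most abundant of the 4 kinases in every tissue, and ran in normoxia from 135.3 ± 13.3 TPM in the lung (SD, n = 24 in each group here) to 34.3 ± 12.8 TPM in the liver, a range of 3.95-fold. Each neighbour in its order (lung, cerebellum, muscle, kidney, heart, liver) overlapped the next within 1 SD. Csnk1d (CK1 delta, chr11:120961749-120991330), the kinase best known for phosphorylating PER, was at 77.7 ± 9.33 TPM in the lung, apart from the kidney at 40.1 ± 6.17 TPM. Below the kidney, muscle (36.1 ± 5.36), cerebellum (30.4 ± 12.2), heart (23.9 ± 8.84) and liver (23.1 ± 4.99 TPM) overlapped in turn.

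Its close relative Csnk1e (CK1 epsilon, chr15:79417856-79455566) varied far more between tissues, by 20.0-fold. It fell from 83.5 ± 10.54 TPM in the lung through cerebellum (52.4 ± 10.3), muscle (40.7 ± 4.89) and heart (30.1 ± 9.09) to the kidney (9.499 ± 2.08) and the liver (4.18 ± 0.992 TPM). The steps from lung to cerebellum, heart to kidney and kidney to liver were wider than 1 SD on each side. Within a library, Csnk1d stood at 0.570 ± 0.137 times Csnk1e in the cerebellum and 0.933 ± 0.0497 times in the lung, but at 4.29 ± 0.476 times in the kidney and 5.65 ± 1.21 times in the liver. By the means of normoxia delta was thus the major form of the pair in kidney and liver and the minor form in the other 4 tissues. In the lung the 2 forms were close, with libraries from 0.855 to 1.04 in normoxia and a ratio of 0.990 ± 0.0912 after IH. After IH the means of this ratio kept that order, from 0.616 ± 0.166 in the cerebellum to 5.51 ± 1.75 in the liver. Gsk3b (GSK3 beta, chr16:38089001-38246084), a kinase of PER2, CRY2 and REV-ERB alpha, was highest in cerebellum (21.7 ± 5.05) and lung (19.6 ± 3.88 TPM), which overlapped, and lowest in heart (5.35 ± 1.95) and liver (5.07 ± 2.03 TPM), which overlapped too.

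Btrc (chr19:45363734-45530013) followed Gsk3b in having its highest level in the cerebellum, 27.7 ± 7.03 TPM, and its lowest in the liver, 6.15 ± 1.11 TPM. The paralog Fbxw11 (beta-TrCP2) was more abundant than Btrc, and within a library Btrc stood between 0.259 ± 0.0320 times Fbxw11 in the kidney and 0.695 ± 0.210 times in the liver in normoxia. Reads of such close relatives may have been divided between them at quantification, which was not tested. Fbxl21 (chr13:56522472-56537898), whose F-box protein binds CRY, was rare everywhere: 2.39 ± 0.572 TPM in the cerebellum, 2.32 ± 0.699 in the kidney, 1.66 ± 0.410 in the liver, 0.722 ± 0.218 in the lung, 0.256 ± 0.0965 in muscle and 0.214 ± 0.0704 in the heart. It was above 0 in every library. Cerebellum, kidney and liver overlapped within 1 SD, and lung stood apart from liver and from muscle.

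Usp2 (chr9:44067021-44095627) was most abundant in muscle (71.6 ± 26.1 TPM) and cerebellum (66.3 ± 18.3), followed by kidney (46.2 ± 14.5), heart (23.1 ± 6.55), liver (15.6 ± 12.1) and lung (8.23 ± 2.73 TPM). Only the step from kidney to heart was wider than 1 SD on each side. In the liver the 24 normoxia libraries ran from 1.14 TPM through a median of 13.2 to 43.6 TPM, a spread that belongs to the time of day, as described further on. In muscle Usp2 ranked second of the 7 genes, after Csnk1a1, and in the lung it ranked sixth, above Fbxl21 alone.

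**Figure D1:**
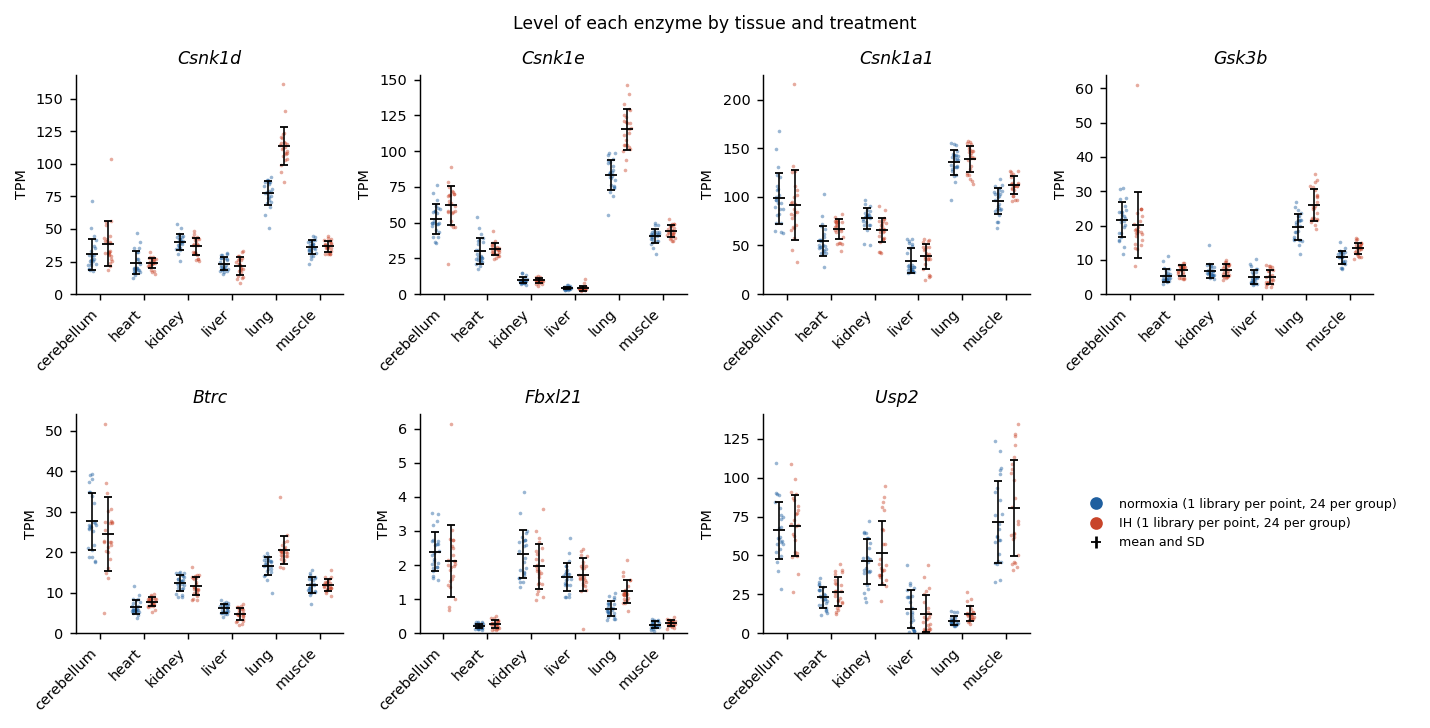
TPM of each enzyme (vertical axis, from 0) by tissue, in normoxia (blue) and after IH (red); each point is 1 library, with the mean and SD of 24. Csnk1e spans from 4.18 TPM in the liver to 83.5 TPM in the lung in normoxia, whereas Fbxl21 stays below 2.5 TPM on average everywhere.

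The first comparison asked whether the level of each enzyme, averaged over the 24 hours, differed between IH and normoxia. None of the 39 pairs of gene and tissue tested changed by 1.5-fold or more on log2 of TPM scaled per library. In plain means of TPM as deposited, Usp2 in the lung went from 8.23 to 12.7 TPM. Fbxl21 in the lung, which was not tested, went from 0.722 to 1.23 TPM. Of 39 pairs, 14 passed an adjusted p of 0.05 (limma, Benjamini-Hochberg over all genes of the tissue), 10 higher and 4 lower after IH. At an unadjusted p of 0.05, 20 pairs passed. Fbxl21 fell under the filter of a mean of 1 TPM over both treatments in heart, lung and muscle, and is given there without it further on. In bulk tissue, a lower level of an RNA per cell and fewer cells that hold it cannot be told apart.

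Calls were common in general, so the count of members is read against the share over all genes. In the cerebellum 2 of 7 members passed, both higher, where 15.0% of 14892 genes passed, 9.76% higher and 5.24% lower, and 2.64% also changed by 1.5-fold. Heart had 3 of 6, all higher, against 45.2% of 12779 genes (28.0% higher, 17.3% lower; 2.95% by 1.5-fold). Kidney had 2 of 7, both lower, against 19.8% of 12902 genes (8.25% higher, 11.5% lower; 0.783% by 1.5-fold). The liver had 1 higher and 1 lower of 7, against 24.2% of 11334 genes (10.9% higher, 13.3% lower; 3.65% by 1.5-fold). In the lung 2 were higher and 1 lower of 6, where 70.4% of 15426 genes passed (28.9% higher, 41.5% lower; 13.48% by 1.5-fold). Muscle had 2 of 6, both higher, against 10.4% of 12824 genes (5.48% higher, 4.89% lower; 0.374% by 1.5-fold). The members' share was below that of all genes in the lung and above it in the other 5 tissues, on counts of 6 or 7 genes.

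Csnk1d rose in the lung. Its 24 libraries ran from 51.1 through a median of 78.4 to 90.2 TPM in normoxia and from 86.0 through 112.7 to 161.1 TPM after IH, so the groups overlapped only between 86.0 and 90.2 TPM, and IH was higher at 8 of 8 time points. On scaled TPM the levels were 84.9 ± 7.38 and 100.6 ± 7.58, a log2 difference of 0.24 ± 0.04 (SE; limma adjusted p = 5.74e-08), and on TPM as deposited the log2 difference was 0.55. Csnk1e rose in the lung as well, from 55.0, 84.3 and 98.8 TPM (lowest, median, highest) to 86.7, 115.9 and 146.4 TPM, by 0.16 ± 0.04 on the log2 scale of scaled TPM (adjusted p = 0.00125) and by 0.47 on TPM as deposited. For both genes, each replicate number taken alone gave a rise in the lung, of 0.20 to 0.30 for Csnk1d and 0.15 to 0.18 for Csnk1e. Markers moved in the lung too: the lung genes summed to a median of 166810 TPM in normoxia and 143070 TPM after IH, and the heart genes to 255.5 and 465.2 TPM, and their part in the lung results was not tested. The lung calls of Csnk1d, Csnk1e and Csnk1a1 held on scaled TPM when each replicate number and each time point was left out in turn, which takes in the library with few lung transcripts.

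The same pair rose in the cerebellum, by log2 0.33 ± 0.09 for Csnk1d (adjusted p = 0.00885) and 0.23 ± 0.06 for Csnk1e (adjusted p = 0.0103). Csnk1d ran from 17.8 through 26.5 to 71.5 TPM in normoxia and from 18.3 through 32.9 to 104.1 TPM after IH, so the groups overlapped over most of their range. This rise rested on replicate numbers 1 and 2, which gave 0.54 and 0.45 for Csnk1d where replicate 3 gave 0.01, and 0.29 and 0.37 for Csnk1e where replicate 3 gave 0.03. Without replicate 1 or without replicate 2 neither gene passed (adjusted p from 0.204 to 0.521), nor did they on TPM as deposited (adjusted p = 0.163 and 0.178) or with a term for how many genes each library detected (0.0625 and 0.062). Leaving out the cerebellum library with the most heart transcripts, the values were 0.33 and 0.25. The other cerebellum libraries held heart transcripts too, and their part was not tested. In the kidney Csnk1d fell by 0.10 (log2 difference -0.10 ± 0.03, adjusted p = 0.0424), a call that was lost without replicate 1 (adjusted p = 0.244) or replicate 2 (0.347), on TPM as deposited (0.233) and without most of the time points taken singly. Csnk1e had differences from -0.02 to 0.08 in heart, kidney, liver and muscle and passed in none of them.

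Csnk1a1 passed in 5 of 6 tissues, more than any other member, and with opposite signs. It rose in heart (log2 0.19 ± 0.04, adjusted p = 0.000475), muscle (0.14 ± 0.03, adjusted p = 0.000321) and liver (0.29 ± 0.11, adjusted p = 0.0482), and fell in kidney (-0.21 ± 0.04, adjusted p = 0.000207) and lung (-0.26 ± 0.04, adjusted p = 1.24e-07). Muscle ran from 67.9 through 98.5 to 118.3 TPM in normoxia and from 95.4 through 111.5 to 127.0 TPM after IH, with IH higher at 8 of 8 time points. Kidney ran from 50.6 through 79.7 to 97.2 TPM in normoxia and from 42.6 through 66.6 to 90.7 TPM after IH, and on scaled TPM IH was higher at 0 of 8 time points. The sign held in each replicate number of these 5 tissues.

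The fall of Csnk1a1 in the lung depended on the scale. As deposited, its TPM was 135.3 ± 13.3 in normoxia and 139.1 ± 13.53 after IH (log2 difference 0.04, adjusted p = 0.443), while scaled TPM was 147.9 ± 6.95 and 123.8 ± 13.9. Allowing for how many genes each library detected, the difference was -0.01 (adjusted p = 0.818). The liver call passed narrowly and was lost under most alternatives: on TPM as deposited (0.17, adjusted p = 0.435), with no filter (0.112), with a term for time point (0.0554), without replicate 1 (0.214) or 2 (0.487), without 6 of the 8 time points taken singly, and without the library that held heart transcripts (0.055). The heart rise was lost once the term for genes detected was added (0.09, adjusted p = 0.525). The muscle rise was lost without replicate 3 (adjusted p = 0.101).

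Gsk3b rose in heart and muscle. Muscle ran from 7.32 through 10.9 to 15.2 TPM in normoxia and from 10.1 through 13.46 to 16.3 TPM after IH, with IH higher at 8 of 8 time points and a log2 difference of 0.22 ± 0.04 (adjusted p = 6.77e-05). The groups overlapped, and the 3 replicate numbers alone gave 0.09, 0.25 and 0.31. In the heart, Gsk3b ran from 3.00 through 4.62 to 11.05 TPM in normoxia and from 4.26 through 7.33 to 9.16 TPM after IH, a difference of 0.26 ± 0.06 (adjusted p = 0.000369) that no longer passed without replicate 1 (0.13, adjusted p = 0.115) or with the term for genes detected (0.14, adjusted p = 0.434). In the lung it depended on scale and replicate: the log2 difference was 0.11 ± 0.07 on scaled TPM (adjusted p = 0.139) and 0.41 on TPM as deposited (adjusted p = 9.11e-06), and replicate 1 alone gave -0.27 where replicate 3 alone gave 0.49. With the term for genes detected it was 0.51 (adjusted p = 3.42e-07), and without replicate 1 it was 0.30 (0.00101).

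Btrc moved in opposite directions in heart and liver. In the liver it ran from 4.11 through 6.02 to 8.28 TPM in normoxia and from 1.95 through 4.71 to 7.27 TPM after IH, was lower after IH at 8 of 8 time points, and fell by 0.25 (log2 difference -0.25 ± 0.07, adjusted p = 0.00446). Without the library that held heart transcripts the difference was -0.26 (adjusted p = 0.00306), but without replicate 1 it was -0.15 (adjusted p = 0.269) and without replicate 2 -0.25 (adjusted p = 0.113). The liver genes were lower after IH in more than that library, and their part in the liver results was not tested. Its paralog Fbxw11 rose in the liver by log2 0.48 ± 0.12 (adjusted p = 0.00388; 0.36 with adjusted p = 0.1 on TPM as deposited), and the ratio of Btrc to Fbxw11 within a library was 0.695 ± 0.210 in normoxia and 0.396 ± 0.107 after IH. In the heart Btrc rose by 0.15 ± 0.04 (adjusted p = 0.000898), from 6.53 ± 1.77 to 7.78 ± 1.13 TPM. Without replicate 1 it no longer passed (adjusted p = 0.0531), and with the term for genes detected the difference was -0.01 (adjusted p = 0.965). In the lung Btrc had a log2 difference of -0.01 ± 0.04 on scaled TPM and rose by 0.29 on TPM as deposited (adjusted p = 3.35e-05).

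Fbxl21 passed in none of the 3 tissues where it was tested, with log2 differences of -0.21 ± 0.09 in the cerebellum (adjusted p = 0.101), -0.17 ± 0.10 in the kidney (adjusted p = 0.218) and 0.09 ± 0.10 in the liver (adjusted p = 0.544). With time point as a term it did pass in the kidney (-0.17, adjusted p = 0.0222). In the lung, below the filter, it ran from 0.396 through 0.695 to 1.17 TPM in normoxia and from 0.647 through 1.15 to 2.14 TPM after IH and was higher at 8 of 8 time points. With no filter on low values it rose there by 0.30 ± 0.06 (adjusted p = 7.48e-05), a value that the pseudocount of 0.5 makes smaller at such levels. Usp2 passed in 0 of 6 tissues. In the lung it ran from 4.91 through 7.79 to 14.1 TPM in normoxia and from 6.23 through 12.1 to 26.6 TPM after IH, a log2 difference of 0.29 ± 0.13 with an adjusted p of 0.051. It passed there with time point as a term (adjusted p = 0.00414), with a replicate block (0.0484) and on TPM as deposited (0.58, adjusted p = 8.21e-05), while replicate 2 alone gave -0.01 and the other numbers 0.31 and 0.57. With the term for genes detected Usp2 did not pass in the lung (0.39, adjusted p = 0.125). With a replicate left out, its adjusted p there ran from 0.0175 to 0.392. Its difference in the liver of -0.22 ± 0.41 had the widest error of all, since time of day was part of the spread.

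**Figure D2:**
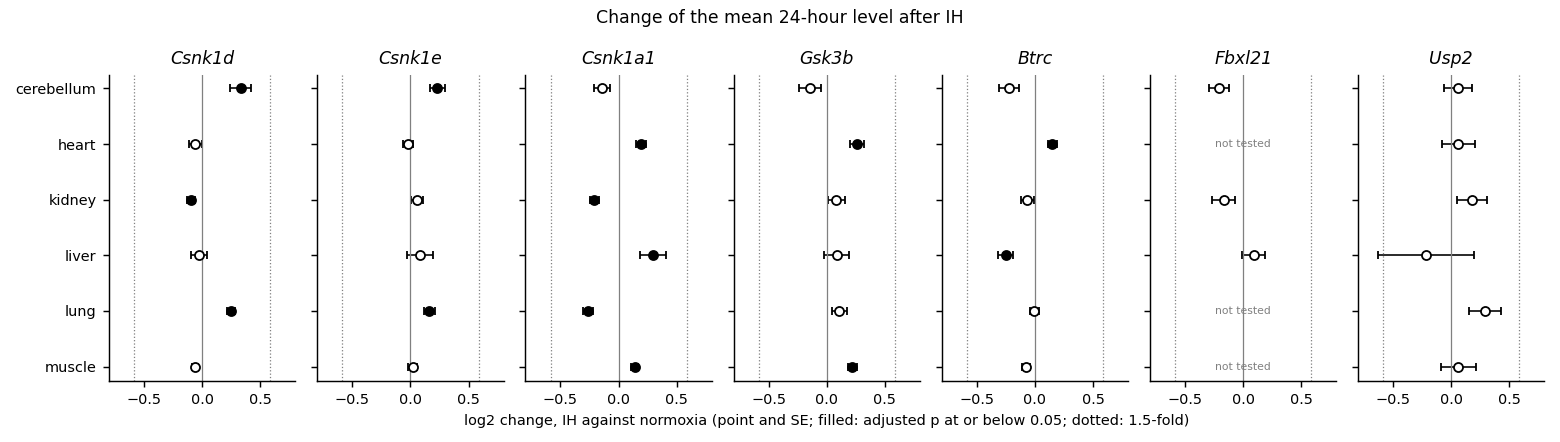
Log2 difference of IH against normoxia in mean 24-hour level on scaled TPM (horizontal axis), by tissue, 1 panel per enzyme, with SE bars; filled points have an adjusted p at or below 0.05 and dotted lines mark 1.5-fold. All points lie between the dotted lines, and Csnk1a1 has filled points on both sides of 0.

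Scaling bore on the lung above all. The median log2 difference over all genes tested there was -0.08 on scaled TPM and 0.21 on TPM as deposited, and over the 6 members tested 0.14 and 0.44. Relative to all genes the members' median was therefore higher on both scales. Over all tissues, 9 of the 14 calls were also made, with the same sign, on TPM as deposited. In heart and liver the deposited scale moved the median of all genes to 0.15 and -0.12.

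The change after IH differed between tissues for 4 of the 6 members tested in all tissues, by the treatment-by-tissue term over all libraries. These were Csnk1a1 (changes from -0.26 to 0.29, adjusted p = 1.28e-11), Csnk1d (from -0.10 to 0.33, adjusted p = 8.39e-09), Btrc (from -0.25 to 0.15, adjusted p = 5.48e-06) and Gsk3b (from -0.15 to 0.26, adjusted p = 0.0063; lost without replicate 1, adjusted p = 0.133, or replicate 2, 0.0585). Csnk1e (adjusted p = 0.0704) and Usp2 (adjusted p = 0.686) did not pass. Csnk1e did pass without the 2 libraries that stood farthest apart (adjusted p = 0.000837), without replicate 3 (0.0156) and on TPM as deposited (0.000654). Of all 9876 genes tested this way 88.3% passed, so 4 of 6 is no more than the background. Replicates are separate mice according to the study, and each p-value here measures the spread between these libraries. Libraries of different tissues were taken as independent, and a block for libraries that share time point, treatment and number gave the same count of 4.

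The second question was whether the enzymes' RNA cycled over 24 hours, tested as a cosine of 24 hours in each treatment. Usp2 was rhythmic in 5 of 6 tissues in both treatments, and the other calls were few. In all, 10 of 40 pairs of gene and tissue passed an adjusted p of 0.05 in normoxia and 7 of 40 after IH. In normoxia, members passed in the cerebellum in 0 of 7 cases (0% of 21372 genes), in the heart in 1 of 6 (0.558% of 15770), in the kidney in 3 of 7 (18.6% of 14706), in the liver in 2 of 7 (14.4% of 14482), in the lung in 3 of 7 (6.80% of 20106) and in muscle in 1 of 6 (5.38% of 15181). After IH the cerebellum had 0 of 7 (0.00936% of genes), heart 1 of 6 (3.45%), kidney 2 of 7 (5.38%), liver 1 of 7 (2.33%), lung 1 of 7 (3.37%) and muscle 2 of 6 (7.43%).

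Usp2 swung most in the liver. In normoxia its 3 libraries were at 1.41, 1.42 and 1.14 TPM at 1:30 and at 23.6, 32.5 and 43.6 TPM at 10:30, a ratio of means of 25.1, and after IH at 1.97, 1.02 and 1.77 TPM and at 16.4, 27.5 and 43.6 TPM, a ratio of 18.4. No library of the peak time overlapped one of the trough. Here and below, peak and trough times were chosen as the highest and lowest of these same means, which favours such a gap. Csnk1d in the cerebellum of normoxia had no overlap either, with no rhythm called, so overlap is a description alone. The cosine on log2 of scaled TPM peaked at 13.4 ± 0.4 hours in normoxia (fitted times in decimal hours, with SE; adjusted p = 1e-06) and at 12.8 ± 0.4 hours after IH (adjusted p = 2.54e-05), and its amplitudes of 1.88 ± 0.19 and 1.76 ± 0.20 correspond to fitted ratios of peak to trough of 13.49 and 11.4. At 13:30 after IH, the library with heart transcripts held 5.23 TPM against 10.4 and 36.1 TPM in the other replicates, and without it the amplitude was 1.90.

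In muscle, where Usp2 was most abundant, its mean rose from 42.0 ± 14.5 TPM at 1:30 to 110.3 ± 17.4 TPM at 13:30 in normoxia (SD, n = 3), and after IH from 42.4 ± 1.92 TPM at 22:30 to 129.9 ± 3.90 TPM at 13:30. Peak and trough libraries did not overlap in either treatment. The fitted amplitude was 0.61 ± 0.05 in normoxia (adjusted p = 2.08e-07) and 0.76 ± 0.05 after IH (adjusted p = 3.49e-09). In the kidney the amplitude was 0.48 ± 0.06 in normoxia (adjusted p = 5.46e-05) and 0.55 ± 0.09 after IH (adjusted p = 0.00149), and in the heart 0.53 ± 0.08 (adjusted p = 0.00372) and 0.57 ± 0.09 (adjusted p = 0.00112). Usp2 in the lung went from 5.61 ± 0.870 TPM at 19:30 to 13.9 ± 0.203 TPM at 10:30 in normoxia, and from 7.70 ± 1.60 TPM at 1:30 to 20.3 ± 6.44 TPM at 10:30 after IH, with amplitudes of 0.43 ± 0.10 (adjusted p = 0.0223) and 0.55 ± 0.09 (adjusted p = 0.00223). In the heart the call was lost without replicate 1 in either treatment and without replicate 2 in normoxia (adjusted p from 0.112 to 0.22), and after IH the kidney and lung calls were lost without replicate 1 (0.199 and 0.0713), the lung call also without replicate 2 (0.0818). The lung call of normoxia was lost when any replicate was left out (adjusted p from 0.0668 to 0.259).

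The cerebellum stood apart. There Usp2 was close to its level in muscle, but its amplitude was 0.17 ± 0.12 in normoxia (adjusted p = 0.506) and 0.19 ± 0.12 after IH (adjusted p = 0.98), and the libraries of its highest and lowest times overlapped. Whether the amplitude differs between tissues was not tested. The cosine made few calls for any gene in this tissue, although the rank and Lomb-Scargle tests combined called 1594 of 21372 genes in normoxia and 17 after IH. By the cosine, Arntl did not pass in either treatment, and Dbp did so only after IH (adjusted p = 0.000155; 0.0974 in normoxia).

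**Figure D3:**
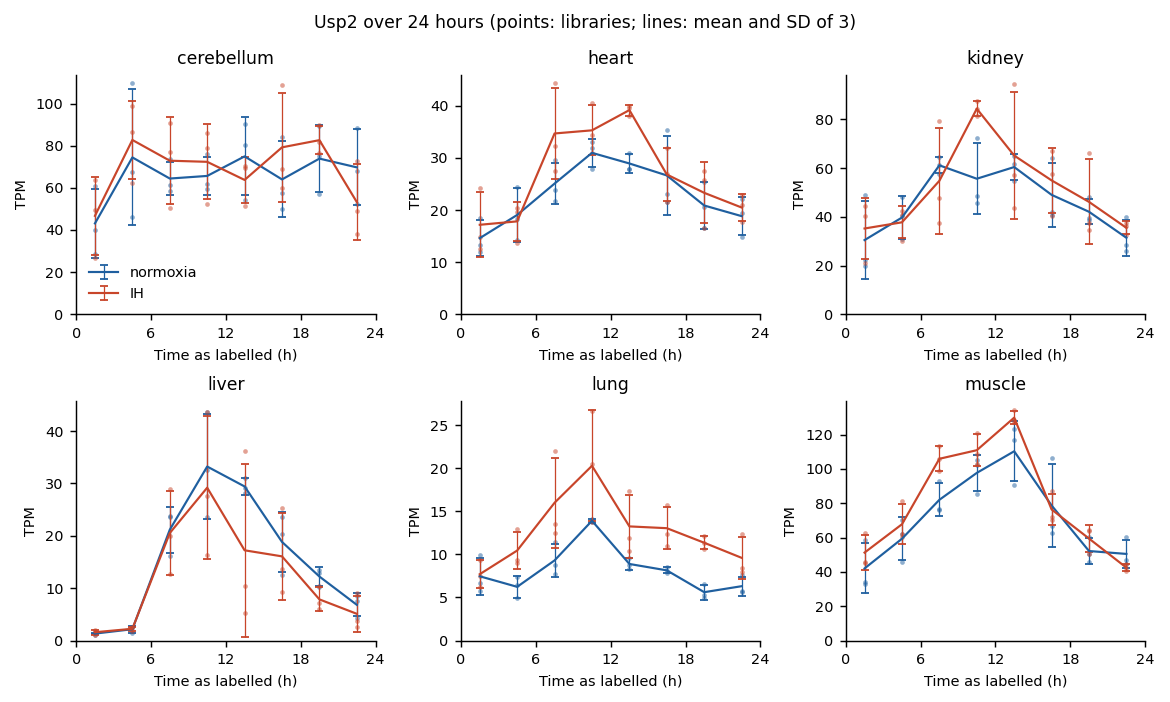
Usp2 in TPM (vertical axes, from 0 and different in each panel) against labelled time in hours, by tissue, in normoxia (blue) and after IH (red); points are libraries and lines join the mean of 3 with its SD. The curves of both treatments peak between 7:30 and 13:30 in the 5 tissues outside the cerebellum.

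The time of the Usp2 peak fell between those of clock genes. In the 5 rhythmic tissues of normoxia it lay between 10.7 ± 0.9 hours in the lung and 13.4 ± 0.4 hours in the liver. It came later than the peak of Dbp, an output of the E-box, by 1.63 ± 0.36 hours in muscle up to 3.20 ± 0.46 hours in the liver. Against Per1 the difference ran from -0.41 ± 1.03 hours in the lung to 0.51 ± 0.79 hours in the heart, each smaller than its SE. Per2 peaked later than Usp2 by between 1.00 ± 0.70 hours in the heart and 2.13 ± 0.91 hours in the lung. After IH the lag behind Dbp was between 1.43 ± 0.33 hours in muscle and 3.10 ± 0.53 hours in the liver. In the heart after IH Usp2 peaked 0.99 ± 0.80 hours later than Per1, and Per2 peaked 0.72 ± 0.66 hours later than Usp2. Per2 in the liver after IH had no rhythm called (adjusted p = 0.341). These are descriptions of fitted times, with samples 3 hours apart.

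**Figure D4:**
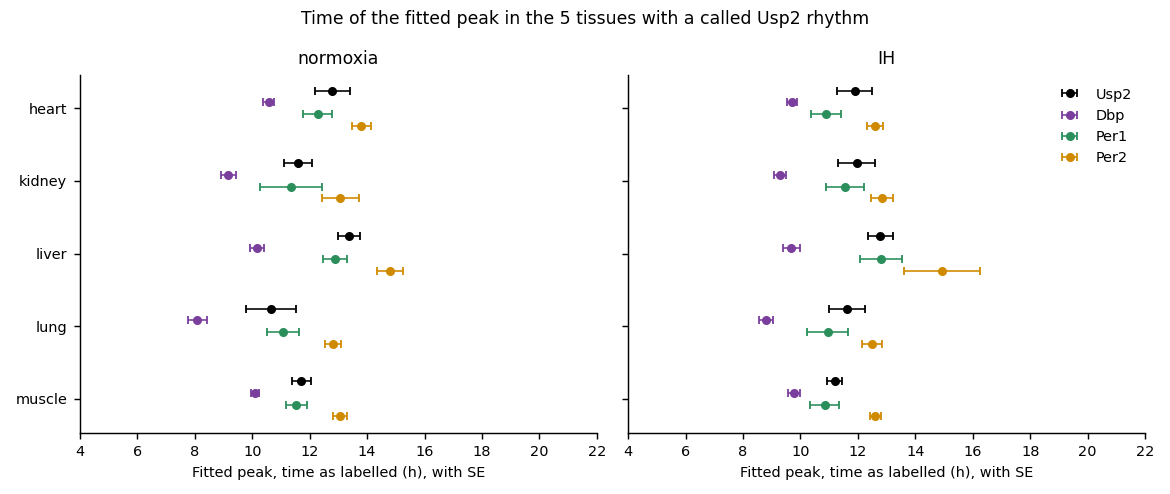
Time of the fitted peak, on the labelled clock (horizontal axis, hours, with SE) of Usp2, Dbp, Per1 and Per2 in the 5 tissues in which Usp2 was called rhythmic, in normoxia (left) and after IH (right). In each row Dbp comes first and Per2 last, with Usp2 and Per1 between them.

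Fbxl21 was the only other member with a rhythm in more than 1 tissue. In the kidney its libraries held 3.53, 4.14 and 2.94 TPM at 7:30 and 1.78, 1.36 and 1.52 TPM at 16:30 in normoxia, with no overlap, and the fitted peak was at 7.0 ± 0.5 hours with an amplitude of 0.38 ± 0.05 (adjusted p = 0.000129). After IH it held 2.68, 2.79 and 2.40 TPM at 10:30 and 1.47, 1.15 and 1.07 TPM at 16:30, with a fitted peak at 7.4 ± 0.5 hours and an amplitude of 0.42 ± 0.06 (adjusted p = 0.000183). In the liver of normoxia the peak was earlier, at 2.8 ± 1.0 hours, with 2.79, 1.97 and 2.11 TPM at 1:30 and 1.07, 1.56 and 1.05 TPM at 13:30 (amplitude 0.26 ± 0.07, adjusted p = 0.0288). After IH the liver amplitude of 0.24 ± 0.11 did not pass (adjusted p = 0.649), and the library with heart transcripts held 0.117 TPM at 13:30, where the other replicates held 1.39 and 1.42 TPM. Without it the amplitude was 0.13 (adjusted p = 0.506). A combination of the rank and Lomb-Scargle tests did call Fbxl21 in the liver after IH (adjusted p = 0.00267), but that combination gives too small p-values. The Fbxl21 call of the kidney after IH was lost without replicate 1 (adjusted p = 0.0582), and that of the liver in normoxia without replicate 1 (0.394) or 2 (0.0855).

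The kinases cycled little. In the lung of normoxia Csnk1d had 90.2, 86.5 and 84.2 TPM at 13:30 and 78.2, 51.1 and 76.9 TPM at 1:30 (peak at 14.1 ± 0.7 hours, amplitude 0.13 ± 0.02, adjusted p = 0.00453). Csnk1e had 98.8, 93.7 and 94.1 TPM and 85.6, 55.0 and 76.1 TPM at the same times (peak at 13.2 ± 0.6 hours, amplitude 0.17 ± 0.02, adjusted p = 0.000592). The 51.1 and 55.0 TPM at 1:30 were from replicate 2, the normoxia lung library with the highest sum of lung genes. That sum was 261810 TPM against a median of 166810 TPM, and its part was not tested. Neither kinase passed after IH, where the amplitudes were 0.04 ± 0.03 (adjusted p = 0.796) for Csnk1d and 0.15 ± 0.04 (adjusted p = 0.0555) for Csnk1e. Csnk1e did pass after IH with the replicate block (0.0279) and without replicate 2 (0.0452). Neither gene passed a rank test in normoxia (adjusted p = 0.224 and 0.0572). Without replicate 1 both calls of normoxia were lost (0.0788 and 0.0583), and without replicate 3 that of Csnk1d (0.0609). On TPM as deposited the Csnk1d call of normoxia was lost too (0.193). Csnk1a1 passed in the kidney of normoxia with an amplitude of 0.10 ± 0.03 (adjusted p = 0.0295). That call was lost when any replicate was left out, on TPM as deposited (0.346) and by the rank test (adjusted p = 1). Btrc passed in muscle after IH with an amplitude of 0.12 ± 0.03 and a peak at 7.7 ± 0.8 hours (adjusted p = 0.0161), which was lost under the same alternatives. Gsk3b passed in no tissue or treatment.

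**Figure D5:**
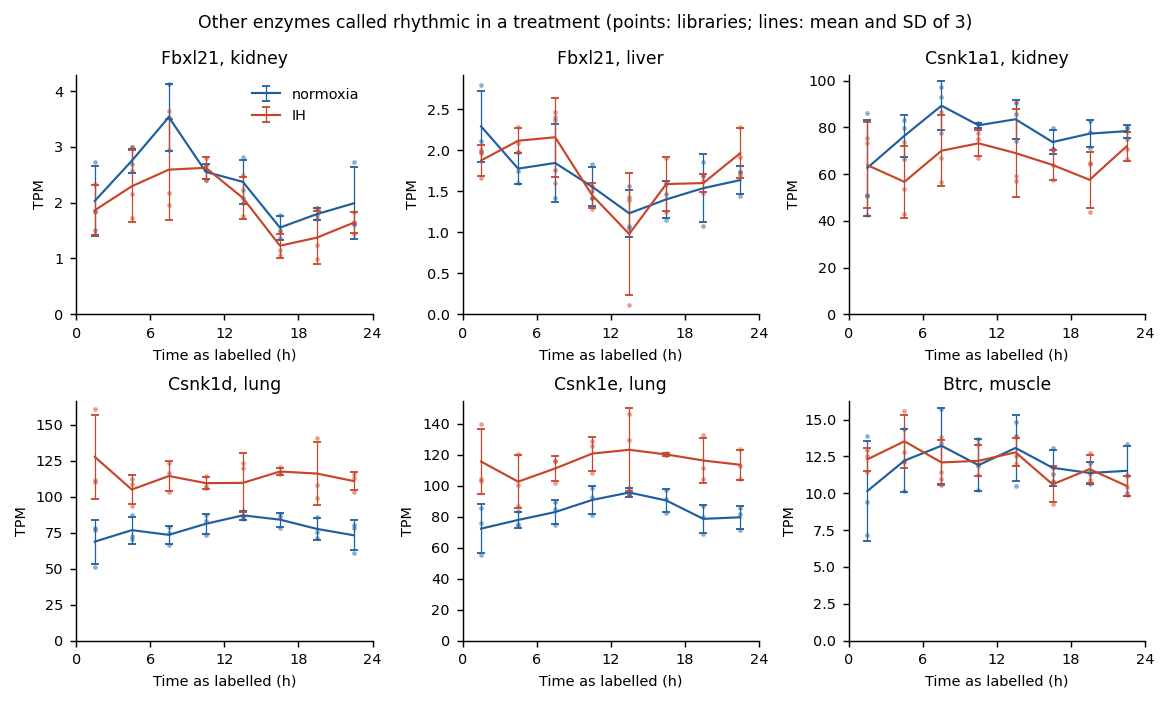
TPM (vertical axes, from 0) against labelled time in hours for the other pairs of enzyme and tissue called rhythmic in a treatment, in normoxia (blue) and after IH (red); points are libraries and lines join the mean of 3 with its SD. Fbxl21 in the kidney is lower at 16:30 than at 7:30 in both treatments, and the Csnk1d and Csnk1e curves in the lung are higher after IH throughout.

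A call in 1 treatment and not the other does not show a changed rhythm, so the difference of the curves was tested itself. It passed for 0 of 40 member pairs and for 0 genes in each tissue (0% called in cerebellum, heart, kidney, liver, lung and muscle by limma, against 1056, 109, 393, 117, 447 and 701 genes in that order at an unadjusted p of 0.05). At an unadjusted p of 0.05, 1 member pair passed, Btrc in the lung (p = 0.0262, adjusted p = 0.9995, with no rhythm called in either treatment). For Usp2 the amplitude after IH minus that in normoxia was, with 95% intervals, liver -0.12 (from -0.69 to 0.45), muscle 0.15 (from -0.0015 to 0.30), lung 0.12 (from -0.16 to 0.39), kidney 0.07 (from -0.16 to 0.29) and heart 0.04 (from -0.21 to 0.29). Its peak moved by -0.58 hours (from -1.78 to 0.62) in the liver, -0.51 hours (from -1.36 to 0.34) in muscle and 0.96 hours (from -1.20 to 3.12) in the lung. In the kidney it moved by 0.38 hours (from -1.30 to 2.06) and in the heart by -0.90 hours (from -2.66 to 0.86), so shifts of a few hours were within the error. For Fbxl21 in the kidney, amplitude differed by 0.04 (from -0.12 to 0.20) and peak by 0.38 hours (from -1.13 to 1.90).

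Other enzymes of the same steps were taken as a list of 36: other casein kinases, CK2, further kinases, phosphatases, ubiquitin ligases with their core, and deubiquitinases. On scaled TPM, in the lung 6 were higher and 21 lower after IH, and on TPM as deposited 19 were higher and 2 lower, so their direction there hung on the scale, and the list's median (-0.14 and 0.16) lay below that of all genes (-0.08 and 0.21) on both. In the heart 12 were higher and 6 lower (15 and 0 on TPM as deposited), and the counts were 4 and 6 for the kidney, 5 and 6 for the liver (0 and 8 on TPM as deposited), 4 and 5 for the cerebellum, and 5 and 1 for muscle. Of all genes on scaled TPM, 28.9% were higher and 41.5% lower in the lung, and 28.0% and 17.3% in the heart. The shares were 8.25% and 11.5% in kidney, 10.9% and 13.3% in liver, 9.76% and 5.24% in cerebellum, and 5.48% and 4.89% in muscle. The counts of the list are descriptions beside these shares. Within the list only Csnk2b, the regulatory subunit of CK2, in the cerebellum changed by 1.5-fold on scaled TPM. Its log2 difference was -0.67 ± 0.12 (limma adjusted p = 0.000102). On TPM as deposited Csnk1g1 (0.84) and Huwe1 (0.80) in the lung and Ddb1 in the liver (-0.66) were also past 1.5-fold. Fbxw11 rose in heart (0.42 ± 0.06, adjusted p = 1.53e-07) and liver and fell in kidney (-0.19 ± 0.06, adjusted p = 0.0194; 0.078 on TPM as deposited). Rhythms were called for 7 of the 36 in the kidney, 5 in the liver and 1 in the lung in normoxia, and after IH for 3 in muscle and 0 in the other 5 tissues, beside 18.6%, 14.4% and 6.80% of all genes in kidney, liver and lung in normoxia and 7.43% in muscle after IH. The shares of the list in kidney and liver were near those of all genes.

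Of the 5 substrate genes, 3 passed in the lung and 0 in the other tissues on scaled TPM (limma), where 70.4% of all lung genes passed, so 3 of 5 is not above the background. In the lung Per2 (log2 0.74 ± 0.29, adjusted p = 0.0201), Per3 (0.88 ± 0.27, adjusted p = 0.00346) and Cry2 (0.28 ± 0.09, adjusted p = 0.00611) rose, and on TPM as deposited 4 of the 5 Per and Cry genes did, and 1 of the 5, Cry2, rose in the heart on that scale (0.31, adjusted p = 0.0264).

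Among 5423 genes of at least 5 TPM in each tissue, those whose normoxia time course was most like that of Usp2 over 48 means of tissue and time point, centred within tissue, were Klf13 (Pearson r = 0.85), Nampt (r = 0.84) and Coq10b (r = 0.83). For Fbxl21, over the 6 tissue means of normoxia and among 18080 genes, they were Abhd3, Pms1 and Mthfsl, each with r between 0.99 and 1.00. The points share libraries and mice, 6 points give many genes such a value, and both are descriptions.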

How the data were processed

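The authors quantified RNA-seq reads with Kallisto on Ensembl 102 (mm10) and deposited 12 tables of TPM, 1 per tissue and treatment; FastQC 0.11.3 is also in the submitters' processing notes. The files hold no counts, so depth and counting error are unknown. TPM summed to 989211 to 999188 per library, 0 pairs of libraries were identical and 0 columns were left unused. Within a tissue, TPM was scaled by median-of-ratios factors and analysed as log2(scaled TPM + 0.5), so fold changes of low genes are understated. limma 3.58.1 in R 4.3.3 (with trend) compared IH with normoxia where a gene averaged 1 TPM or more in the tissue, with Benjamini-Hochberg adjustment within tissue over all genes. A cosine of 24 hours was fitted for genes reaching 1 TPM in a library, and its difference between treatments and the treatment-by-tissue term were tested. Calls used an adjusted p of 0.05, with 1.5-fold as a second rule. Alternatives were other pseudocounts (0.1 and 1), filters, TPM as deposited, further terms, a rank test, and leaving out replicates, time points or the 2 libraries that stood farthest apart. Fits were tested on simulated data. The members were proposed by role, and they, the list of 36 genes and the tests were chosen with earlier results of these data known. The rule for named genes took all 7 members, the listed pathway and substrate genes as counts with values for called ones, and the 3 genes of highest Pearson r with Usp2 and with Fbxl21; of the called pathway genes, Csnk2b (the 1 past 1.5-fold) and Fbxw11, the paralog of Btrc, are given with values. A further item is not reported here. Sequences are from RefSeq and gene positions from GENCODE M21. Same-numbered libraries of the 2 treatments deviated together across genes for all 3 replicate numbers only in muscle (r = 0.155, 0.375 and 0.65). Normoxia replicate 1 there followed IH replicate 2 more closely (r = 0.671), and in the liver replicates 1 and 3 gave 0.669 and 0.487. The main fits did not pair libraries by number, and the replicate block was an alternative in every tissue. Whether libraries of different tissues share a mouse was not known. Python 3.11.15 was used for descriptions.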

Additional observations from a re-analysis of the deposited data

Results flagged for a closer look

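The change after IH differed between the 6 tissues for 4 of the 6 genes tested (Fbxl21 was too low in 3 tissues), by the treatment-by-tissue term of limma. The highest minus the lowest log2 change was 0.5579 for Csnk1a1 (liver against lung), 0.4274 for Csnk1d (cerebellum against kidney), 0.4043 for Gsk3b (heart against cerebellum) and 0.4 for Btrc (heart against liver). Of all genes tested 88.3% passed the same test. The Csnk1a1 value rests in part on the lung, where the sign depended on the scale. Treatments also differed in the number of genes detected in lung and heart, and a term for it was not added to this test.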

How the results depend on the processing

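Of 2273 values recomputed under an alternative, 2141 kept their side of the threshold, 97 no longer passed, 29 newly passed, 5 turned sign while called and 1 moved beyond its spread; among the 2141, 45 that passed in neither case changed sign. The 14 calls on mean level became 9 with a term for genes detected, 8, 7 and 7 within replicate numbers 1, 2 and 3 alone, and 9 to 15 when a replicate was left out. These are net counts. With the term for genes detected, Gsk3b in the lung and Btrc in the cerebellum were new calls. Calls lost with it were Csnk1d and Csnk1e in cerebellum, Csnk1a1, Gsk3b and Btrc in heart, Csnk1d in kidney and Csnk1a1 in lung. The signs of values called in either case turned for Csnk1a1 in the lung (0.039) and Btrc in the lung (0.29) on TPM as deposited, for Btrc in the heart (-0.0059) with the term for genes detected, for Gsk3b in the lung within replicate 1 (-0.27) and for Csnk1d in the kidney within replicate 3 (0.027). The 10 rhythms of normoxia became 4 to 7 and the 7 after IH 2 to 7 without a replicate, as fewer libraries entered the fit. The interaction count of 4 became 3 to 5. The replicate block gave 15 calls on mean level, adding Usp2 in the lung (adjusted p = 0.0484). It gave 11 rhythms in normoxia, 8 after IH, 4 interactions, 0 changed rhythms and 0 changes of 1.5-fold, and changed no call in muscle. Calls of a 1.5-fold change and of a changed rhythm were 0 among the pairs tested under every alternative run. Other causes were not tested. TPM without counts sets no limit from depth, and Fbxl21 in heart and muscle, below 1 TPM in both treatments, is the least certain level.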
